A study of Mus musculus with 11 samples.

Results

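The genes described here encode the proteins of the mitochondrial ribosome. They were taken as all genes of the count tables whose mouse symbol begins with Mrpl or Mrps and a number, leaving out 5 pseudogenes. This gave 78 of 48709 genes, 49 named for the large subunit (Mrpl) and 29 named for the small subunit (Mrps). RNA was measured in primary hippocampal neurons of the mouse, kept for 10 days in culture at 20% oxygen. The hypoxia group was then held at 1% oxygen for 4 h in a hypoxia workstation (5 libraries), and the control group stayed at 20% oxygen (6 libraries). Control cells shared an isolation with the hypoxic cells, per the labels' treatment protocol, and the labels name no genetic change. The sources used here give neither the strain nor the age of the animals, nor whether libraries are separate dishes. The p-values therefore stand against the spread of these libraries only, and this spread may be technical. The series title links heart failure with impaired memory through epigenetic gene regulation.

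The mitochondrial ribosome translates the few mRNAs that the mitochondrial genome encodes, all of them for subunits of the respiratory chain and ATP synthase. Its 2 rRNAs, mt-Rnr1 of the small subunit and mt-Rnr2 of the large subunit, are made inside the organelle, while every one of its proteins is encoded in the nucleus, made in the cytosol and imported. Many of the proteins descend from bacterial ribosomal proteins, and others were added later in evolution and have no bacterial counterpart. Neurons depend on respiration for most of their ATP, and inherited defects in several of these proteins cause disease of the brain or the heart.

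Total counts ran from 2.27e+07 to 3.19e+07 in hypoxia libraries and from 1.66e+07 to 3.14e+07 in control libraries, and control 1 was the shallowest. Summed neuron markers lay between 6985 and 7534 CPM in hypoxia libraries and between 6940 and 7583 CPM in control libraries (CPM, counts per 1e+06 counts after TMM scaling), and 0 of 10 changed. The cultures also held astrocyte transcripts, with 3071 to 3360 CPM in hypoxia and 3072 to 3360 CPM in control over 8 markers, of which 1 fell (Aqp4). Oligodendrocyte markers summed to 96.3 to 126 CPM in hypoxia and 114 to 160 CPM in control, and 3 of 8 fell (Mog, Olig1 and Olig2). Endothelial and mural markers summed to 23.9 to 33.8 CPM in hypoxia and 17.9 to 22.1 CPM in control, and 1 of 5 tested rose (Pdgfrb). Most of this sum was Pdgfrb itself (mean 21.4 CPM in hypoxia and 14.5 CPM in control). The log2 fold changes of the others, none called, were -0.16 (Rgs5), -0.74 (Cdh5), 0.51 (Flt1) and 0.27 (Pecam1). Microglial markers (16 to 18.9 CPM in hypoxia, 15.5 to 18.2 CPM in control) and fibroblast markers (164 to 324 CPM in hypoxia, 175 to 240 CPM in control) had 0 changed of 6 tested each, and no marker of these lists was listed at 0 in every library. The part of these cell types in the results was not tested, and in bulk RNA fewer cells of a type and less RNA per cell cannot be told apart.

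Across the mitochondrial ribosome, mRNA levels differed little between hypoxia and control. Of the 77 genes that passed the filter on low counts, 7 rose (Mrpl45, Mrpl16, Mrpl1, Mrps30, Mrpl17, Mrpl30 and Mrps22) and 2 fell (Mrps5 and Mrps14) at an adjusted p under 0.05 in edgeR's quasi-likelihood test with Benjamini-Hochberg adjustment over all genes. That is 11.7% of the genes tested, against 22.9% of the 16235 genes tested in the whole table (10.1% higher and 12.8% lower). The changes were small: log2 fold changes, hypoxia over control, ran from -0.19 (Mrps12, not called) to 0.31 (Mrpl45). The median size of the log2 fold change was 0.07 for these genes and 0.12 for all genes tested. Without control 1, 12 genes rose and 2 fell, with 25.4% of all genes then called.

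The intervals show how closely the levels were measured. For 68 of the 77 genes (88.3%) the 95% interval of the fold change left room for less than a 25% excess in either group (log2 0.32), against 54.6% of all genes tested. The 9 others were Mrpl45, Mrpl1, Mrpl47, Mrps12, Mrpl2, Mrpl34, Mrps36, Mrpl23 and Mrps34, and the last of these had about 1 CPM. Among the 39 genes between the lower and upper quartiles of these levels (14.4 to 29.9 CPM), 89.7% had such an interval, against 72.8% of the 2283 genes of the whole table in that range. In the same range 15.4% were called, against 27.5% of all genes. At an unadjusted p under 0.05 there were 19 genes of 77, against 34.8% of all genes tested. The median coefficient of variation between libraries was 4.96% in hypoxia and 6.19% in control for these genes, and 7.68% in hypoxia and 8.47% in control for all genes tested.

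**Figure D1:**
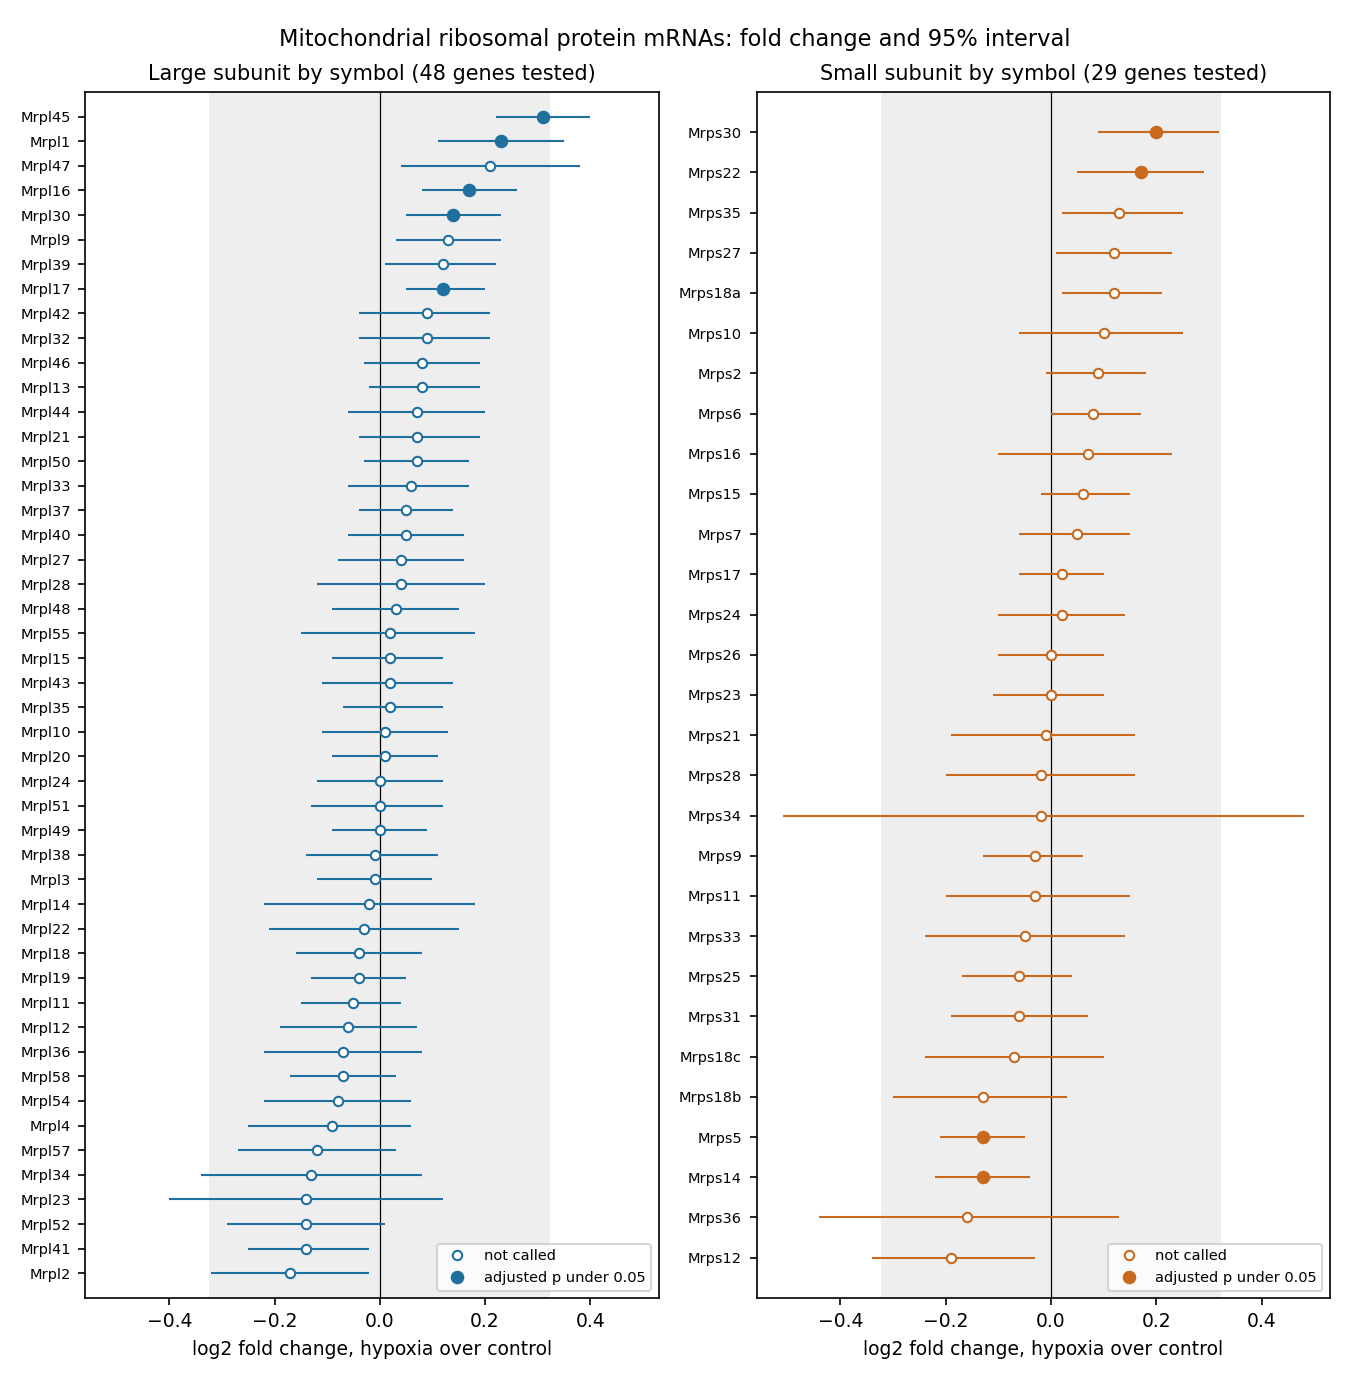
Log2 fold change, hypoxia over control, of the 77 genes tested (points) with the 95% interval (lines), for the 48 large subunit genes on the left and the 29 small subunit genes on the right. Filled points passed an adjusted p of 0.05 in edgeR, and the grey band spans a 25% excess in either group (log2 0.32). All 77 points lie inside the band, from -0.19 for Mrps12 to 0.31 for Mrpl45, and 9 intervals reach past it.

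Mrpl45, a large subunit protein without a bacterial counterpart that sits by the peptide exit tunnel and holds the ribosome to the inner membrane, showed the largest increase. It had 32.2, 30.8, 30.2, 31.2 and 31.9 CPM in hypoxia 1 to 5, against 24.2, 26.4, 24.0, 25.8, 24.7 and 26.2 CPM in control 1 to 6. Every hypoxia library was above every control library. The log2 fold change was 0.31 ± 0.04 (SE, 95% interval 0.22 to 0.40, edgeR adjusted p = 8.27e-05). Of the 19 tested large subunit genes classed here without a bacterial counterpart, it alone passed the test (5.26%, against 22.9% of all genes tested). The gene lies on chromosome 11 from 97315716 to 97329920 on the plus strand (GRCm38), and its exons overlap no other annotated gene.

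The other large subunit genes that rose, Mrpl16, Mrpl1, Mrpl17 and Mrpl30, belong to the 29 classed here with a bacterial counterpart, of which 0 fell. They are 13.8% of the 29, and over all genes tested 10.1% rose and 12.8% fell. Mrpl16, a protein close to the site of peptide bond formation, had 29.9, 28.1, 29.9, 28.1 and 27.6 CPM in hypoxia 1 to 5, against 25.3, 24.6, 25.8, 25.4, 26.6 and 25.4 CPM in control 1 to 6. The groups did not overlap, and its log2 fold change was 0.17 ± 0.04 (SE, edgeR adjusted p = 0.00805). Mrpl1, of the mobile stalk near the tRNA exit site, had 24.0, 26.7, 23.4, 24.5 and 24.2 CPM in hypoxia 1 to 5, against 24.4, 20.8, 21.1, 20.0, 19.5 and 20.5 CPM in control 1 to 6. Here control 1 lay among the hypoxia libraries, and the other control libraries were all lower than every hypoxia library (log2 fold change 0.23 ± 0.06, SE, edgeR adjusted p = 0.00855). Mrpl17, a homologue of bacterial L17, had 43.3, 42.5, 42.1, 42.9 and 42.4 CPM in hypoxia 1 to 5, against 40.1, 38.9, 40.0, 39.9, 38.1 and 38.2 CPM in control 1 to 6. The difference was small and the libraries of each group lay close together, so the groups did not overlap (log2 fold change 0.12 ± 0.03, SE, edgeR adjusted p = 0.0163). Mrpl30, a homologue of bacterial L30, had 52.4, 47.7, 49.0, 49.7 and 46.0 CPM in hypoxia 1 to 5, against 45, 41.8, 47.2, 44.6, 45.2 and 42.9 CPM in control 1 to 6. Hypoxia 5 lay below control 3, and the log2 fold change was 0.14 ± 0.04 (SE, edgeR adjusted p = 0.0293). The call of Mrpl30 was lost on leaving out any one of 6 of the 11 libraries (adjusted p up to 0.0824), and the others were kept without each library in turn. That of Mrpl17 was lost without the filter on low counts (adjusted p = 0.0687).

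**Figure D2:**
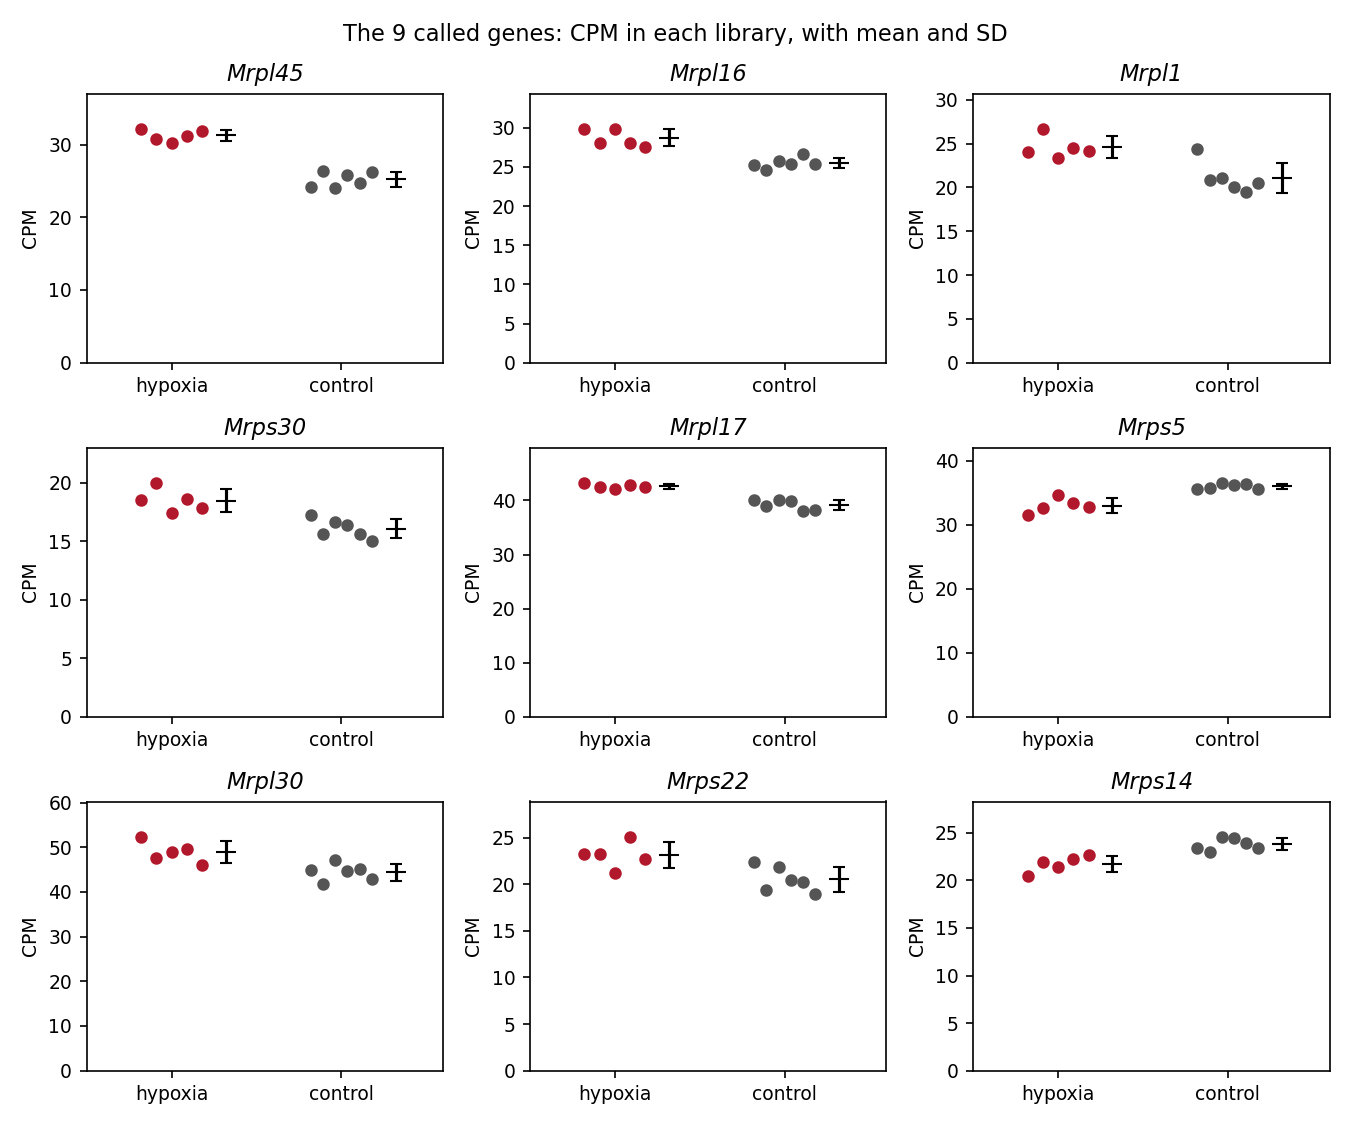
CPM (TMM-scaled) of the 9 genes that passed an adjusted p of 0.05, with 1 point per library, hypoxia (5 libraries, red) and control (6 libraries, grey), and the mean with its SD beside the points; axes start at 0. Mrpl45 stands apart most, with 30.2 to 32.2 CPM in hypoxia and 24.0 to 26.4 CPM in control, while libraries of the groups overlap for Mrpl1, Mrpl30 and Mrps22.

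Among genes with a small subunit symbol, Mrps30 and Mrps22 rose. Mrps30 is named for the small subunit, but in the mammalian ribosome structure its protein is part of the large subunit (mL65). It had 18.5, 20.0, 17.4, 18.6 and 17.8 CPM in hypoxia 1 to 5, against 17.2, 15.6, 16.6, 16.4, 15.6 and 15.0 CPM in control 1 to 6. Hypoxia 3 and control 1 were close, but the groups did not overlap (log2 fold change 0.20 ± 0.05, SE, edgeR adjusted p = 0.0131). Mrps22, a small subunit protein without a bacterial counterpart that is mutated in an inherited disease with cardiomyopathy, had 23.2, 23.2, 21.2, 25.1 and 22.7 CPM in hypoxia 1 to 5, against 22.4, 19.4, 21.8, 20.4, 20.2 and 18.9 CPM in control 1 to 6. Hypoxia 3 lay below control 1 and control 3 (log2 fold change 0.17 ± 0.06, SE, edgeR adjusted p = 0.0382), and the call was lost on leaving out any one of 7 of the 11 libraries (adjusted p up to 0.111).

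The 2 genes that fell are homologues of bacterial small subunit proteins. Mrps5, whose protein lies at the mRNA entry side of the subunit, had 31.5, 32.6, 34.6, 33.4 and 32.8 CPM in hypoxia 1 to 5, against 35.6, 35.7, 36.6, 36.2, 36.4 and 35.6 CPM in control 1 to 6. Control libraries lay within about 1 CPM of each other and all hypoxia libraries were below them (log2 fold change -0.13 ± 0.04, SE, edgeR adjusted p = 0.0217). Mrps14 had 20.5, 21.9, 21.4, 22.2 and 22.7 CPM in hypoxia 1 to 5, against 23.4, 23.0, 24.6, 24.5, 23.9 and 23.4 CPM in control 1 to 6. The groups again did not overlap (log2 fold change -0.13 ± 0.04, SE, edgeR adjusted p = 0.0449). Both calls were fragile. That of Mrps5 was lost without control 5, hypoxia 1 or hypoxia 2 (adjusted p up to 0.074) and without the filter on low counts (0.161). That of Mrps14 was lost on leaving out any one of 9 of the 11 libraries (up to 0.103), without the filter (0.23), with RLE factors (0.0667), with robust fitting (0.0501) and with DESeq2 (0.104).

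Setting large against small subunit by symbol, 5 of 48 large subunit genes rose and 0 fell, while 2 of 29 small subunit genes rose and 2 fell. The genes called were 10.4% of the large and 13.8% of the small subunit genes, against 22.9% of all genes tested. Over all genes tested 10.1% rose and 12.8% fell, so the share of large subunit genes that rose was near that of all genes. At an unadjusted p under 0.05 there were 10 large and 9 small subunit genes, both directions together. The median log2 fold change was 0.02 for the large subunit and -0.00 for the small subunit, against -0.02 for all genes tested. Assigned by the mammalian structure, Mrps30 and Mrps18a move to the large subunit and Mrps36 is left out. Then 6 of 50 large subunit genes rose and 0 fell (12% called), and 1 of 26 small subunit genes rose and 2 fell (11.5% called). Every hypoxia library lay above every control library for 5 of the 77 genes, namely Mrpl45, Mrpl16, Mrps30, Mrpl17 and Mrps18a. This held for 6.72% of all genes tested, a similar share. Every hypoxia library lay below every control library for 2 of the 77, Mrps5 and Mrps14, against 7.26% of all genes tested, a larger share. By structure the 5 proteins are all in the large subunit and the other pair is in the small one, which is a description of few genes. Whether the subunits differ was not tested, and without control 2 or hypoxia 1 a large subunit gene was also called lower (Mrpl2 without control 2, Mrpl41 without hypoxia 1).

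The summed level of each subunit changed by about as much as libraries of one group differed. Large subunit genes, assigned by structure, summed to 1258 ± 22.3 CPM in hypoxia and 1221 ± 32.7 CPM in control (SD, n = 5 and 6), with ranges of 1225 to 1279 CPM in hypoxia and 1162 to 1256 CPM in control. Small subunit genes summed to 558 ± 7.96 CPM in hypoxia and 553 ± 17.3 CPM in control, with ranges of 548 to 567 CPM in hypoxia and 529 to 570 CPM in control. Scaled by plain library totals the means were 1251 CPM in hypoxia and 1225 CPM in control for the large subunit, and 554 CPM in hypoxia and 555 CPM in control for the small one, where the sign turns. The ratio of large to small was 2.26, 2.25, 2.24, 2.25 and 2.28 in hypoxia 1 to 5, and 2.27, 2.20, 2.18, 2.15, 2.20 and 2.26 in control 1 to 6. Control 1 and control 6 lay among the hypoxia libraries and the other 4 control libraries lay below all of them. Assigned by symbol, the ratio was 1.93 ± 0.0165 in hypoxia and 1.91 ± 0.0384 in control (SD).

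**Figure D3:**
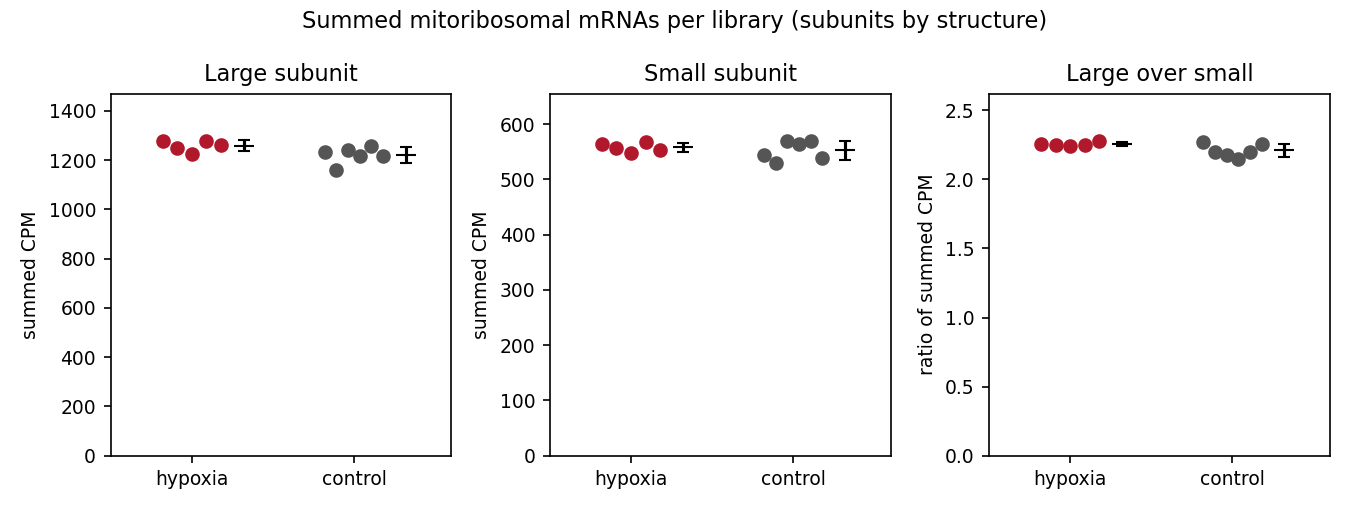
Summed CPM of the large and the small subunit genes, assigned by structure, and their ratio, in each hypoxia library (red, n = 5) and control library (grey, n = 6), with mean and SD beside the points; axes start at 0. The groups overlap in all 3 panels: the large subunit sums to 1225 to 1279 CPM in hypoxia and 1162 to 1256 CPM in control, and the small one to 548 to 567 CPM in hypoxia and 529 to 570 CPM in control.

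The 3 genes of the Mrps18 family, which encode related proteins of different places in the ribosome, had different values. Mrps18a, whose protein is in the large subunit (mL66), had 43.3, 41.8, 41.7, 42.7 and 41.8 CPM in hypoxia 1 to 5, against 39.2, 34.4, 40.3, 40.9, 40.3 and 38.1 CPM in control 1 to 6. It did not pass the test (log2 fold change 0.12 ± 0.04, SE, edgeR adjusted p = 0.0665) although the groups did not overlap, and control 2 was the lowest library. Mrps18b averaged 10.1 ± 0.497 CPM in hypoxia and 11 ± 1.20 CPM in control (SD), with a log2 fold change of -0.13 (95% interval -0.30 to 0.03). Mrps18c, the member of the family closest in position to bacterial S18, averaged 9.91 ± 0.741 CPM in hypoxia and 10.4 ± 1.16 CPM in control, with a log2 fold change of -0.07 (95% interval -0.24 to 0.10). The differences between the members of the family were not tested. Mrps36, which carries the symbol of a small subunit protein but is a component of the 2-oxoglutarate dehydrogenase complex, averaged 2.29 ± 0.450 CPM in hypoxia and 2.53 ± 0.312 CPM in control, with a log2 fold change of -0.16 (95% interval -0.44 to 0.13).

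Other genes of the decoding centre and of the core of each subunit that are given here did not pass the test. Mrps12, of the decoding centre, had the lowest fold change of all, with 13.3, 11.4, 10.8, 11.6 and 11.2 CPM in hypoxia 1 to 5, against 11.5, 12.1, 13.8, 13.4, 13.9 and 14.5 CPM in control 1 to 6. Hypoxia 1 and control 1 went against their groups (log2 fold change -0.19 ± 0.07, SE, edgeR adjusted p = 0.0743). Mrpl2, a protein of the large subunit's core, had the lowest fold change in that subunit, with 14.4 to 16.2 CPM in hypoxia (median 14.8) and 14.7 to 19.7 CPM in control, which overlap (log2 fold change -0.17 ± 0.07, SE, edgeR adjusted p = 0.0969). Mrpl3, another core protein, averaged 51.2 ± 1.27 CPM in hypoxia and 51.6 ± 4.57 CPM in control (95% interval of the log2 fold change -0.12 to 0.10). Mrps16, whose bacterial counterpart aids assembly of the subunit, averaged 13.6 ± 1.42 CPM in hypoxia and 13.0 ± 1.14 CPM in control (-0.10 to 0.23), and Mrps7, of the head of the subunit, averaged 33.2 ± 1.37 CPM in hypoxia and 32.1 ± 2.23 CPM in control (-0.06 to 0.15).

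The stalk that recruits translation factors was close to level. Mrpl10, at the base of the stalk, averaged 47.4 ± 2.59 CPM in hypoxia and 46.9 ± 4.05 CPM in control (SD; 95% interval of the log2 fold change -0.11 to 0.13). Mrpl12, the stalk protein itself, averaged 25 ± 1.25 CPM in hypoxia and 26.0 ± 2.37 CPM in control (-0.19 to 0.07). Mrpl44, related to ribonuclease III and mutated in an inherited cardiomyopathy, averaged 15.8 ± 0.755 CPM in hypoxia and 15.2 ± 1.23 CPM in control (-0.06 to 0.20). Mrpl58, a peptidyl-tRNA hydrolase built into the large subunit that frees stalled ribosomes, averaged 18 ± 0.918 CPM in hypoxia and 18.9 ± 0.421 CPM in control (-0.17 to 0.03). The intervals of these 4 genes all left room for less than a 25% excess in either group.

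By level, the most abundant transcripts were those of Mrpl50, Mrps17, Mrpl3, Mrpl10 and Mrpl30. Mrpl50, a large subunit protein without a bacterial counterpart, averaged 62.9 ± 3.09 CPM in hypoxia and 59.9 ± 3.92 CPM in control (SD; log2 fold change 0.07 ± 0.05, SE, edgeR adjusted p = 0.303). Mrps17, a homologue of bacterial S17, averaged 58.0 ± 0.872 CPM in hypoxia and 57.1 ± 2.5 CPM in control (0.02 ± 0.04, adjusted p = 0.715). Mrps6, of the platform of the small subunit, averaged 39.6 ± 1.07 CPM in hypoxia and 37.3 ± 1.32 CPM in control (0.08 ± 0.04, adjusted p = 0.131). Mrpl9, a homologue of bacterial L9, averaged 46.1 ± 2.51 CPM in hypoxia and 42.2 ± 2.03 CPM in control (0.13 ± 0.05) and just missed the threshold (edgeR adjusted p = 0.0555). Per kilobase of annotated exon the median level was 9.66 CPM for large and 6.22 CPM for small subunit genes, against 3.87 CPM for all genes tested. Ranks per length depended on which length was used: Mrpl41, at 32.6 CPM per kilobase, was highest over the union of its exons, and Mrpl20, at 56.8 CPM per kilobase, over the longest coding transcript. Mrpl20, Mrps6 and Mrpl41 were among the highest 5 by both lengths.

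Fold change and level went together to some degree. Spearman's rho between log2 fold change and log2 mean CPM was 0.42 over the 77 genes and 0.22 over all 16235 genes tested, a description across genes that share libraries and are not independent. Of the 26 least abundant genes (0.985 to 16.1 CPM), 7 had a positive log2 fold change and 0 were called, with a median of -0.04. The next 25 genes (16.2 to 26.8 CPM) had 15 positive values and a median of 0.05, and the 26 most abundant (26.9 to 61.3 CPM) had 19 positive values and a median of 0.03. All genes tested in the same 3 ranges had medians of -0.07, -0.02 and -0.00. In both sets the lowest range had the lowest median, but that of the ribosomal genes was highest in the middle range and that of all genes in the highest. Exon length also went with the fold change over the 77 genes (rho 0.38) and less so over all genes (rho 0.08).

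**Figure D4:**
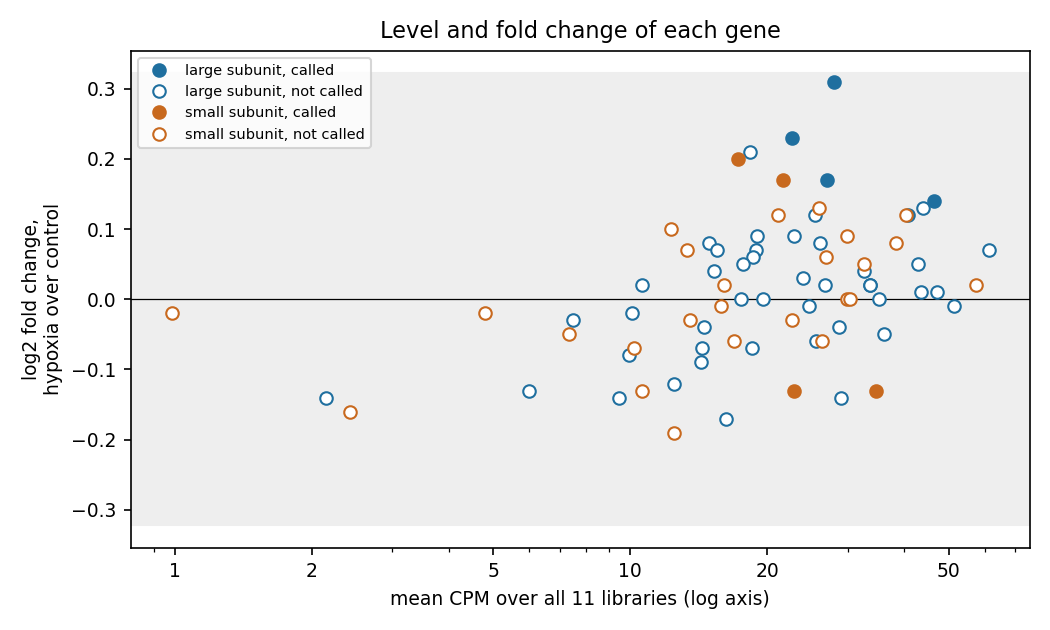
Log2 fold change, hypoxia over control, against the mean CPM over all 11 libraries (log axis) for the 77 genes tested, with large subunit genes in blue, small subunit genes in orange and called genes filled. The grey band spans a 25% excess in either group (log2 0.32). The least abundant called gene is Mrps30 at 17.2 CPM, and 7 of the 26 least abundant genes have a positive value, against 19 of the 26 most abundant.

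Some genes could be read only in part. Mrpl53 was not tested, with 4 counts over all 11 libraries, and 88.0% of its annotated exon bases are shared with other genes. Mrps34, a small subunit protein mutated in an inherited mitochondrial disease, averaged 0.993 ± 0.251 CPM in hypoxia and 0.979 ± 0.338 CPM in control (SD), with a wide 95% interval of the log2 fold change (-0.51 to 0.48). Of its exon bases, 77.8% overlap other genes, Nme3 on its own strand and Mapk8ip3 on the opposite one, and the libraries did not mark strand. Mrps25, with 69.8% of its exon bases shared with Nr2c2, had 25.8 ± 0.698 CPM in hypoxia and 26.9 ± 1.6 CPM in control. Mrpl23, a protein near the exit tunnel, averaged 2.05 ± 0.312 CPM in hypoxia and 2.24 ± 0.238 CPM in control (95% interval -0.40 to 0.12). Mrpl23 and Mrps36 have processed copies elsewhere in the genome that held 0 to 4 counts per library, and how reads matching several places were counted is not given in the sources used here. Mrpl48-ps, the pseudogene with most reads, had 41 to 64 counts in hypoxia libraries and 33 to 80 counts in control libraries. Among the 68 genes with under 20% of exon bases shared, the same counts of 7 higher and 2 lower were found, since each of the 9 is among them.

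Promoters were compared with motifs known from genes of mitochondria, and 6 of the 9 called genes are printed, 4 that rose with a match and 1 that rose and 1 that fell without. Nuclear respiratory factor 1 (NRF1) and GABP, a member of the ETS family, are transcription factors known to act on many nuclear genes for mitochondrial proteins. RefSeq promoters (GRCm38.p6, 250 bases before the start to 50 bases after it) were matched for 69 of the 78 genes. Each line gives the 130 bases before the start, 5′ to 3′ on the gene's strand, with a match to NRF1 (GCGCA, any base, then GCGC) or ETS (CCGGAAG), read on either strand, in capitals. The positions are chr11:97315586-97315715 (plus) for Mrpl45, chr7:105811088-105811217 (minus) for Mrpl17, chr1:37890347-37890476 (plus) for Mrpl30, chr9:98601680-98601809 (minus) for Mrps22 chr13:118387253-118387382 (minus) for Mrps30, which rose and has no match to either, and chr1:160195085-160195214 (plus) for Mrps14, which fell and has none.
Mrpl45: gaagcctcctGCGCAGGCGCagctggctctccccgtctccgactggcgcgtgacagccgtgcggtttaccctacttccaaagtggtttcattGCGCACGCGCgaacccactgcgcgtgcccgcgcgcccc
Mrpl17: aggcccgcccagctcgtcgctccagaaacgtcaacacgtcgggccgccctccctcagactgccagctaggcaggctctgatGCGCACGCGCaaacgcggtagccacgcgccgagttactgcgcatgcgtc
Mrpl30: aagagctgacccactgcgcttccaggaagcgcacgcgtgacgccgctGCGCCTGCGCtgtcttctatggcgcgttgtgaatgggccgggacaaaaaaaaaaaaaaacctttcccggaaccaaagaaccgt
Mrps22: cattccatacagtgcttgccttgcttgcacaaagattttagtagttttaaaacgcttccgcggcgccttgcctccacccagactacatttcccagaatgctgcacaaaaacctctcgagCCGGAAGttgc
Mrps30: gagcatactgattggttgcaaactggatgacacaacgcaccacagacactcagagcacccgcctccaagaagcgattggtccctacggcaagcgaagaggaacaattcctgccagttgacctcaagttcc
Mrps14: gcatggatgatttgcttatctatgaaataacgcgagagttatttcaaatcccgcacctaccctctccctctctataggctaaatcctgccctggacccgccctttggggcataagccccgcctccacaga

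Mrpl45, the gene with the largest increase, has 3 NRF1 matches in its window, at -120 and -38 in the printed stretch and at 15 bases after the start. Mrpl17 has 1 at -49 and Mrpl30 has 1 at -83. An ETS match lies at -11 in Mrps22 and at -237 in Mrpl17, the latter outside the printed stretch. Mrpl1, Mrpl16 and Mrps30, which rose, and Mrps5 and Mrps14, which fell, have no NRF1 or ETS match in the window. Among the printed promoters, the annotated starts of RefSeq and GENCODE differ by 12 bases for Mrpl17 and by 19 bases for Mrps22. For Mrpl1 the window (96209865 to 96210164) lies wholly after the GENCODE start at 96209493, so the region before that start was not searched. For Mrps5 the window begins at 127587176 and the GENCODE start is 127587222, so few bases before that start were searched. Of the 69 genes, counting a gene once where it has several promoters, 13 held the NRF1 letters (18.8%), against 10.5% of genes tested and 5.2% of all 27025 genes with a RefSeq promoter. The ETS letters were in 26 (37.7%), against 18% of genes tested and 9.9% of all. The YY1 letters (AAGATGGCG) were in 8 (11.6%), against 3.15% of genes tested and 1.6% of all. The letters ACGTG, a form of the core of the element bound by HIF and MYC, were in 16 (23.2%), against 28.5% of genes tested and 21.8% of all. The form of the HIF core that begins with G (GCGTG) was not searched, so these are not counts of all HIF cores. TATAAA was in 5 (7.2%), against 8.99% of genes tested and 15.7% of all. All motifs were searched on both strands, they can overlap each other's letters, and a match is only a run of letters.

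Matches and fold changes are set side by side here without a test. NRF1 letters were in 3 of the 7 genes that rose, in 0 of the 2 that fell and in 10 of the 59 others with a promoter. ETS letters were in 2 of the 7 and in 23 of the 59, and YY1 letters in 0 of the 7 and in 8 of the 59. ACGTG was in 1 of the 7 and in 15 of the 59, and TATAAA in 1 of the 7 and in 4 of the 59. Neither gene that fell held any of these letters. The median log2 fold change was 0.07 for the 13 genes with the NRF1 letters and 0.02 for the 55 tested genes without them. For ETS it was -0.00 with the letters and 0.02 without, and for ACGTG 0.02 with the letters and 0.01 without.

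The genes are scattered over 17 chromosomes, with the most (11) on chromosome 11, and many share a start region with a neighbour. Of the 78 genes, 18 start within 1000 bases of a protein-coding gene that runs away from them on the other strand without an overlap of the starts, 16 of them within 200 bases. In 13 of the 18 pairs both log2 fold changes had the same sign, and in 0 were both genes called. The agreement in sign was not set against other pairs of genes, and some of the fold changes were near 0. Of the 18 ribosomal genes 2 were called, and of their neighbours 2 rose and 1 fell, against 22.9% of all genes tested that were called. Mrpl30 starts 66 bases from Mitd1, which averaged 7.09 ± 0.826 CPM in hypoxia and 6.25 ± 0.788 CPM in control (log2 fold change 0.19, edgeR adjusted p = 0.197). Mrps5 starts 128 bases from Zfp661, which averaged 14.6 ± 1.03 CPM in hypoxia and 15.2 ± 0.873 CPM in control (-0.06, adjusted p = 0.538). In the opposite case, the neighbour was called and the ribosomal gene was not. Zfp189, 83 bases from Mrpl50, averaged 10.7 ± 0.943 CPM in hypoxia and 13.6 ± 1.55 CPM in control (-0.35, edgeR adjusted p = 0.0071). Psma2, a proteasome subunit 75 bases from Mrpl32, averaged 89.1 ± 3.09 CPM in hypoxia and 81.0 ± 3.73 CPM in control (0.14, adjusted p = 0.0174), and Ptcd2, 81 bases from Mrps27, averaged 36.2 ± 1.11 CPM in hypoxia and 33.3 ± 1.59 CPM in control (0.13, adjusted p = 0.0411). Mrpl46 and Mrps11, 1 gene of each subunit, run apart on chromosome 7 from starts that overlap, with 173 exon bases in common, so they are not among the 18 pairs. They had log2 fold changes of 0.08 and -0.03, neither past the test (adjusted p = 0.283 and 0.849).

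Proteins of the same ribosome that carry other symbols were close to level too. Of the 5 measured, 0 passed the test and all 5 intervals left room for less than a 25% excess in either group. Summed, they lay between 211 and 226 CPM in hypoxia libraries and between 197 and 209 CPM in control libraries, which do not overlap. Dap3, a GTP-binding small subunit protein and the most abundant of them, had 80.7, 77.9, 82.7, 82.0 and 85.3 CPM in hypoxia 1 to 5, against 74.4, 78.6, 77.8, 78.0, 77.9 and 77.4 CPM in control 1 to 6. Hypoxia 2 lay within the control libraries, and the log2 fold change was 0.08 ± 0.03 (SE, edgeR adjusted p = 0.108). Ptcd3, at 0.13, and Aurkaip1, at 0.15, had the higher values among the rest (adjusted p = 0.0677 and 0.0666).

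Of 26 genes for assembly of the ribosome and modification of its rRNA, 1 rose and 2 fell, and the others did not pass the test (22.9% of all genes tested were called). Mettl17, an iron-sulfur protein needed for small subunit assembly, had 17.5, 16.8, 14.7, 16.6 and 14.8 CPM in hypoxia 1 to 5, against 19.0, 21.9, 20.9, 20.9, 20.1 and 21.3 CPM in control 1 to 6. All hypoxia libraries were below all control libraries, and the log2 fold change of -0.37 ± 0.06 (SE, edgeR adjusted p = 0.000333) was larger in size than that of any gene of the ribosome itself. Mrm3, which methylates the large rRNA, averaged 6.74 ± 0.471 CPM in hypoxia and 8.10 ± 0.888 CPM in control (log2 fold change -0.26, edgeR adjusted p = 0.0362). Eral1, a chaperone of the small rRNA, averaged 18.1 ± 0.932 CPM in hypoxia and 16.1 ± 0.591 CPM in control (0.17, adjusted p = 0.0228).

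Of 14 measured translation factors, 0 rose and 3 fell, a share near the 22.9% called over all genes tested. Tsfm, the exchange factor of elongation factor Tu, had 11.4, 11.4, 10.9, 10.0 and 10.8 CPM in hypoxia 1 to 5, against 11.8, 11.8, 13.4, 12.8, 12.6 and 12.9 CPM in control 1 to 6, without overlap (log2 fold change -0.21, edgeR adjusted p = 0.0189). Mtfmt, which formylates the initiator tRNA, averaged 10.1 ± 0.366 CPM in hypoxia and 11.6 ± 0.806 CPM in control (-0.20, adjusted p = 0.0317). Guf1, a homologue of bacterial LepA, averaged 49.4 ± 6.17 CPM in hypoxia and 60.1 ± 6.93 CPM in control (-0.28, adjusted p = 0.0269), with 1 hypoxia library (38.6 CPM in hypoxia 5) far below the others. Over the assembly, translation factor and other-symbol genes together, 1 rose and 5 fell, but 2 fell without control 1, control 4, hypoxia 4 or hypoxia 5, and 2 rose without control 1, control 3, control 5, hypoxia 2 or hypoxia 3.

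Of the 13 mitochondrial genes whose mRNAs the ribosome translates, 7 could be tested and 6 of them fell, against 12.8% of all genes tested. These genes are counted one by one here, though some share an mRNA. The other 6 could not be read: mt-Atp6, mt-Atp8, mt-Co3, mt-Nd3 and mt-Nd4l were listed at 0 in every library, and mt-Co2 did not pass the filter on low counts. These mRNAs are known to be abundant in neurons, and how the authors counted mitochondrial reads was not tested. mt-Co1, a subunit of complex IV and the most abundant of those tested, averaged 8453 ± 552 CPM in hypoxia and 8511 ± 328 CPM in control (log2 fold change -0.01 ± 0.04, SE, edgeR adjusted p = 0.898). mt-Nd5, a subunit of complex I, had 2578, 2763, 2928, 3298 and 2861 CPM in hypoxia 1 to 5, against 4332, 4040, 4136, 4226, 4095 and 4113 CPM in control 1 to 6 (log2 fold change -0.53 ± 0.05, SE, edgeR adjusted p = 1.76e-06). The groups lay far apart, and those of mt-Nd1 (-0.41), mt-Nd2 (-0.46) and mt-Nd6 (-0.39) did not overlap either. However, mt-Nd5 and mt-Nd6 adjoin and run in opposite directions. Without strand, reads within mt-Nd6 that come from the mt-Nd5 transcript cannot be told apart from its own, so the falls of these genes may not be separate. The 2 rRNAs did not pass the test, and their intervals were wide. mt-Rnr2 had 2246, 2286, 2442, 2519 and 2251 CPM in hypoxia 1 to 5, against 2728, 4388, 1961, 1991, 2051 and 1880 CPM in control 1 to 6 (95% interval of the log2 fold change -0.46 to 0.28). mt-Rnr1 had 1592, 1499, 1485, 1492 and 1483 CPM in hypoxia 1 to 5, against 1655, 2591, 1228, 1261, 1303 and 1209 CPM in control 1 to 6 (-0.36 to 0.30). In both rRNAs control 2 was highest and control 1 next, and the other 4 control libraries lay below every hypoxia library. The libraries were made from polyadenylated RNA, so these values count only the rRNA molecules that were carried through that step.

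The authors' deposited tables of their own comparison list 2099 genes as higher and 1693 as lower, and they hold 23.3% of the 16235 genes tested here. The authors' deposited table of higher genes holds 10 of the 78, and that of lower genes holds 0. Whether these counts differ from the shares over all genes was not tested. All 7 genes that rose here are among the 10 in the authors' deposited table, where Mrpl45 has a log2 fold change of 0.33 and an adjusted p of 7.9e-09. The others in the authors' deposited table are Mrpl47 (0.20), Mrpl9 (0.14) and Mrps18a (0.13), which in the edgeR test here had adjusted p of 0.0699, 0.0555 and 0.0665. Mrps5 and Mrps14, which fell here, are not in the authors' deposited table of lower genes.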

How the data were processed

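RNA of 5 hypoxia and 6 control libraries was sequenced as single reads of 50 bases from polyadenylated RNA with a kit that does not mark strand, per the labels' protocols. The authors deposited whole-number read counts per Ensembl gene. The build mm10 and the tools STAR 2.5.2b, Subread 1.5.1 with featureCounts, DESeq2 and FastQC 0.11.5 are named in the submitters' processing notes; the annotation release is not given in the sources used here. Per the file headers, the authors' deposited comparison tables hold log2 fold changes, p-values and a normalized signal per library, which equals the count over 1 size factor per library in all 11.

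Counts were tested in edgeR 4.0.16 (R 4.3.3) with filterByExpr, TMM factors and the quasi-likelihood F test, hypoxia over control, 2-sided, with Benjamini-Hochberg adjustment over the 16235 genes tested and a threshold of 0.05. The SE is the size of the log2 fold change over the square root of F. CPM is the count scaled to 1e+06 with TMM factors. Sums, medians and counts over lists have no test, and the script was tested on simulated data. Positions and exon lengths came from GENCODE on GRCm38, the build called mm10, and promoters from RefSeq. No pair of libraries agreed within sampling noise (lowest ratio of spread to noise 1.77 within a group). Of the columns of per-sample values, 0 were left unused.

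The genes and lists were chosen with earlier results of these data known. Genes named are those called, the extremes of fold change and level in each subunit, a set of 13 named whatever their values, and up to 4 called genes of each list; others, such as Mrpl47, Mrpl41, Mrpl20 and neighbouring genes, were named after their values were seen. Alternatives were RLE and upper-quartile factors, no filter or a stricter one (1 CPM in 5 libraries), robust fitting, DESeq2 1.42.0, limma-voom 3.58.1, a replicate block and leaving out each library.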

Additional observations from a re-analysis of the deposited data

Results flagged for a closer look

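In 86 groups of libraries (the named genes, each in hypoxia and in control), 1 library stood far from the rest of its group in 12, and chance alone flags about 1 group in 20 by this measure. Control 1, the shallowest library, accounted for 6. It was above the other control libraries for Mrpl1 (24.4 CPM, others 19.5 to 21.1), Mrpl50 (67.4 CPM, others 56.8 to 60.3), Mrpl3 (60.3 CPM, others 48.2 to 52.0), Mrpl44 (17.6 CPM, others 14.1 to 15.2) and mt-Nd2 (4180 CPM, others 3320 to 3610), and below them for Dap3 (74.4 CPM, others 77.4 to 78.6). Control 2 was high for Mrpl23 (2.69 CPM, others 2.03 to 2.27) and for mt-Rnr2 (4390 CPM, others 1880 to 2730).

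Among hypoxia libraries, hypoxia 4 was high for Mrps6 (41.4 CPM, others 38.6 to 39.4) and low for Mrps7 (30.8 CPM, others 33.5 to 34.1). Hypoxia 5 was low for Mrps17 (56.5 CPM, others 58.1 to 58.7) and for Guf1 (38.6 CPM, others 50.4 to 53.7). Of these genes Mrpl1, Guf1 and mt-Nd2 passed the test with all libraries, and Mrpl1 kept its call without each library in turn.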

How the results depend on the processing

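Over 19 alternatives no fold change of the 28 named ribosomal genes was reversed past the threshold, and 481 comparisons of an alternative with the reported result stayed on the same side of it, 37 lost their call and 13 gained one. Mrpl45, Mrpl16 and Mrpl1 were called in all 19. With the block, Mrps30 (adjusted p = 0.0647), Mrpl17 (0.0817), Mrps5 (0.0669) and Mrps14 (0.103), besides Mrpl30 and Mrps22, lost their calls. Of the ribosomal genes, 7 higher and 2 lower became 3 higher and 0 lower with the replicate block; 1 was lower with DESeq2, RLE factors or robust fitting, and 0 without the filter on low counts. Leaving out 1 library at a time gave 5 to 12 higher and 0 to 3 lower. For the large subunit, 3 were higher with the block, and 4 to 8 higher and 0 to 1 lower on leaving out a library. For the small subunit, 0 were higher and 0 lower with the block; 1 was lower with DESeq2, RLE factors or robust fitting and 0 without the filter; and 1 to 4 were higher and 0 to 2 lower on leaving out a library. The median log2 fold change of the small subunit, -0.003 with all libraries, ran from -0.017 (without hypoxia 4) to 0.037 (without control 5) and that of the large subunit from -0.003 to 0.044. Of the assembly, translation factor and other-symbol genes, 4 were higher with DESeq2, 2 with RLE factors, and 0 without the filter or with the block; 2 were lower without the filter and 3 with the block; leaving out a library gave 1 to 2 higher and 2 to 5 lower. The cause of these moves was not tested. The replicate numbers were not taken to pair libraries: deviations of same-numbered libraries correlated at -0.10, 0.14, -0.06, -0.06 and 0.31, and 2 of the 5 hypoxia libraries correlated best with their own number. The block fit left out control 6 and called 18.2% of all genes. Mrpl53, Mrps34, Mrps36 and Mrpl23 had few counts, and their values are imprecise.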
